A study of Mus musculus with 6 samples.

Results

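The unfolded protein response regulators described here are a list of 10 mouse genes: the stress sensors Ern1, Eif2ak3 and Atf6, the transcription factors Xbp1, Atf4 and Ddit3, and the genes Trib3, Herpud1, Edem1 and Sdf2l1 that the response switches on. A member was taken as measured where a probe carried its symbol and no other in the platform annotation and lay in the array rows below row 402. That left 9 of the 10 genes with 1 probe each, out of 17848 genes named in the same way and 34949 probes in those rows. Atf6 had no such probe. Probes that also name Snrpb2 (for Atf4) or Mfsd5 (for Edem1) were not used, nor was a second probe for Ern1 in array row 403.

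The samples were spleens of female BALB/c mice at postnatal day 21, each hybridised to 1 CodeLink whole genome array read in 1 colour. The Pb group held 3 mice given 0.1 mM lead, written Pb here, since day 8 of gestation. The control group held 3 mice with no such treatment in their labels. The labels give neither the route of exposure nor the litters, so it is unknown whether mice of a group shared a dam, and p-values measure only the spread between these arrays. The comparison addresses how developmental lead exposure alters splenic transcripts.

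Proteins that enter the endoplasmic reticulum fold there with the help of chaperones, and unfolded protein activates 3 sensors in its membrane. IRE1, encoded by Ern1, removes a short intron from Xbp1 mRNA so that an active transcription factor is made. PERK, encoded by Eif2ak3, phosphorylates the translation factor eIF2 alpha, which slows most translation but favours that of Atf4, whose product drives Ddit3 (CHOP) and Trib3. ATF6 is cut in the Golgi to release a transcription factor that acts on chaperone genes. In the spleen, the pathway is best known from plasma cells, which need XBP1 to secrete antibody. Splicing, phosphorylation and cleavage are not read by these probes, which report transcript level alone.

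The promoter sequences below are shown because they hold the DNA elements through which the response acts on its target genes. ATF6 and XBP1 act through the ER stress response element (ERSE), which is CCAAT and CCACG with any 9 bases between them, and through a compact form, ERSE-II, which is ATTGG and CCACG with any 1 base between them. Another element, TTGCATCA, is bound by C/EBP-ATF pairs such as CHOP with ATF4. These elements were searched on both strands in the 250 bases before each gene start in RefSeq (GRCm38.p6), which covers 9 of the 10 regulators. CCACG, the part of both ERSE forms that ATF6 contacts, was also searched alone, so its matches include those inside an ERSE. Herpud1, the gene of a membrane protein of ER-associated degradation, was the 1 regulator with an ERSE-II, and also the 1 with TTGCATCA. In the sequences that follow, written 5′ to 3′ along the strand of the gene, capitals mark the element.
Herpud1 ERSE-II, chr8:94386357-94386407, plus strand: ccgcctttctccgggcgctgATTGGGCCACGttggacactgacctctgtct
Herpud1 C/EBP-ATF element, chr8:94386297-94386344, plus strand: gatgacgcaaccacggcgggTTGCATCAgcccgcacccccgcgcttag
Hspa5 ERSE, chr2:34772005-34772063, plus strand: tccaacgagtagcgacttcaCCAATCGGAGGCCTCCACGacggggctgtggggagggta
Calr ERSE on the opposite strand, chr8:84847055-84847113, minus strand: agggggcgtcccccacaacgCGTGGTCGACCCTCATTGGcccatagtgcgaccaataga
Dnajc3 ERSE, chr14:118937807-118937865, plus strand: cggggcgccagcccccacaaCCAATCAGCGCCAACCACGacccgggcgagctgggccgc
Syvn1 ERSE, chr19:6046512-6046570, plus strand: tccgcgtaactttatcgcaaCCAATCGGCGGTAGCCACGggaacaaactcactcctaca
The 4 genes besides Herpud1 are not regulators of the list but targets of the response, given because their windows hold the full ERSE.

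Of all 32851 promoter windows, 0.113% held an ERSE, 0.0304% an ERSE-II and 0.791% the TTGCATCA element, while 28.3% held CCACG. Among the 9 regulators, 0 had an ERSE and 5 had CCACG. Among 16 genes of protein folding in the ER with a window, 8 had an ERSE, among them Hspa5, Hsp90b1, Calr and Canx. The window of Hsp90b1 held 2 of them. Of 11 genes of ER-associated degradation, Derl3 and Syvn1 had one. A match is a description of the letters in this window and no evidence that a factor binds, and elements farther from the start were not searched.

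The arrays were not of equal quality. Across probes, the log2 values of the controls correlated with each other at r = 0.94 to 0.95, and those of Pb replicate 1 with the controls at 0.92 to 0.93. Pb replicate 2 reached 0.66 to 0.67 as deposited, and its brightness changed along the array. Pb replicate 3 reached 0.045 to 0.048, so its values did not follow the probes and it was left out, and every value below rests on 2 Pb and 3 control arrays. From each of the other 5 arrays a smooth deviation by array row, array column and level was removed, and r between Pb replicate 2 and each control then came to 0.92. The controls and Pb replicate 1 were what the surface was fitted towards, so that value is not independent of the correction. Levels below are corrected log2 intensities, with array medians near 0, and no level of one probe is set against that of another.

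No change was detected for any of the 9 regulators measured. At a Benjamini-Hochberg adjusted p of 0.05 over all probes tested (limma), 0 of 9 passed in either direction, where 0.0613% of the 24464 probes tested passed. At an unadjusted p under 0.05 there were also 0 of 9, against 7.18% of all probes, 3.88% higher and 3.30% lower. The mean was higher in Pb for 3 genes, where 53.8% of all probes tested had a higher mean, and lower for 6, and the log2 differences ran from -0.59 (Eif2ak3) to 0.22 (Herpud1). Their median was -0.05, beside a median of 0.03 and quartiles of -0.19 and 0.25 over all probes tested. For no member did both Pb arrays lie above all controls, as for 14.0% of probes tested, or below all controls, as for 12.7%. All 9 lay above the limit on dim probes, a mean log2 intensity of -1.56, so none was lost to that filter.

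**Figure D1:**
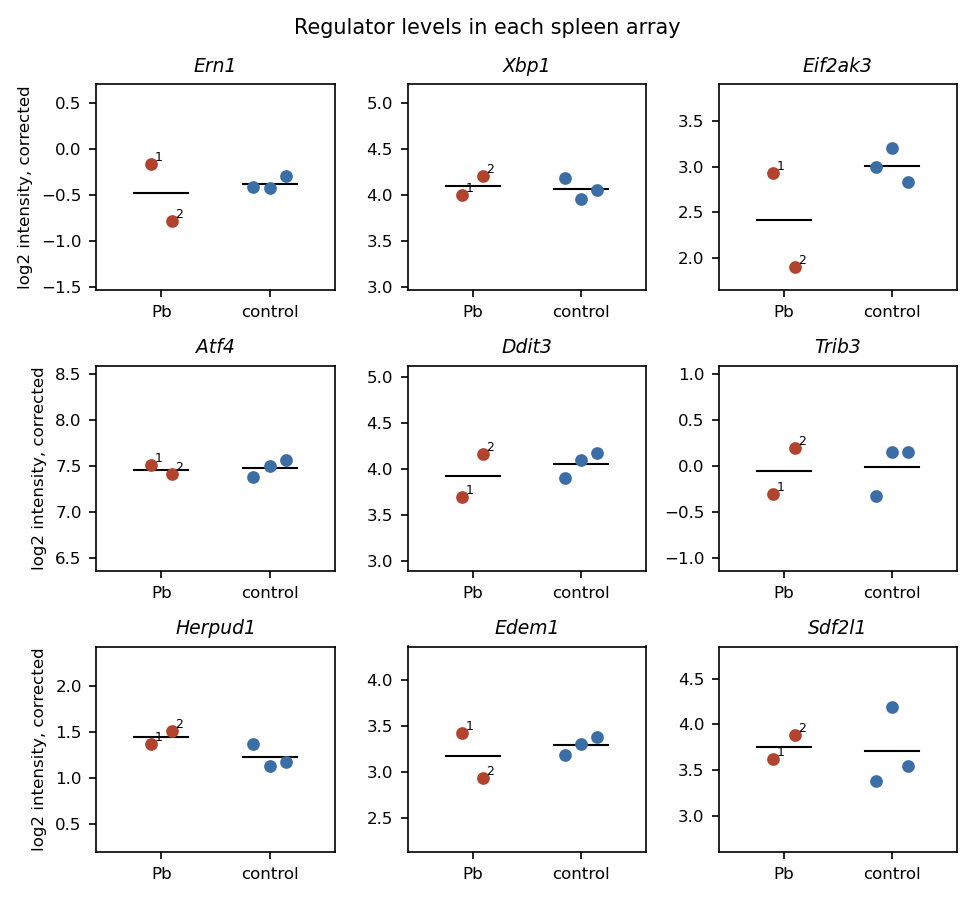
Corrected log2 intensity of the 9 measured regulators in each array, with Pb on the left (red, numbered by replicate) and control on the right (blue), black lines at the group means and the same height of axis in each panel. In no panel do both Pb points lie above, or both below, all control points, and the widest gap between Pb replicates is 1.02, for Eif2ak3.

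Among the sensors, Ern1, the kinase and endonuclease that splices Xbp1, had levels of -0.17 and -0.78 in the Pb spleens, against -0.42, -0.43 and -0.30 in the control spleens. Pb replicate 1 was thus the highest of the 5 arrays and Pb replicate 2 the lowest. The log2 difference was -0.09 (SE 0.23, limma adjusted p = 0.897), with a 95% confidence interval from -0.65 to 0.46.

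Eif2ak3, the sensor kinase PERK, had the largest difference of the 9. It was at 2.93 and 1.91 in the Pb spleens, against 2.99, 3.20 and 2.83 in the control spleens. Pb replicate 1 lay among the controls, and Pb replicate 2 alone lay below them. The log2 difference of -0.59 (SE 0.33, 95% confidence interval -1.38 to 0.21) did not pass, with an adjusted p of 0.622 (limma). Without Pb replicate 2 it was -0.07. Without Pb replicate 1 it was -1.10 with an adjusted p of 0.036 (limma). In that fit 2818 probes passed in all, and it takes the spread of the controls to hold for the single Pb array.

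The probe for Eif2ak3 lies in array row 13, near the edge, where Pb replicate 2 spread widely. As deposited, its intensity was 0.202, against 7.47, 9.11 and 6.14 in the controls, and the correction moved it by 4.22 on the log2 scale. Of the probes within 1 row and 3 columns, 14 were tested, and their deviations from the control mean in Pb replicate 2 had an SD of 1.87. The deviation of the Eif2ak3 probe itself was -1.10, smaller in size than that SD but opposite in sign to the neighbours' median of 0.50. The difference of Eif2ak3 stayed negative in all 16 alternatives on corrected arrays, from -1.35 to -0.07.

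Among the transcription factors, Xbp1, the target of IRE1, was at 4.0 and 4.21 in the Pb spleens, against 4.19, 3.96 and 4.06 in the control spleens. All 5 values lie within a narrow band in which the groups overlap. The log2 difference was 0.03 (SE 0.18, adjusted p = 0.959), and its 95% confidence interval of -0.40 to 0.46 corresponds to a ratio of Pb over control between 0.76 and 1.38. This probe lies in array row 377, near 12 tested neighbours. In Pb replicate 2 their median deviation from the control mean was -0.52, with an SD of 1.66, and the interval does not allow for that.

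Atf4, the factor translated when eIF2 alpha is phosphorylated, was at 7.51 and 7.41 in Pb, against 7.38, 7.50 and 7.56 in controls. The difference came to -0.02 (SE 0.17, adjusted p = 0.974), with an interval of -0.42 to 0.39. Both Pb values lay inside the range of the controls. Around this probe the neighbours had an SD of 0.28 in Pb replicate 2, the smallest of the 9.

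Ddit3, which encodes CHOP, a factor that promotes cell death in prolonged ER stress, was at 3.70 and 4.16 in Pb, against 3.90, 4.10 and 4.18 in controls. Pb replicate 1 was the lowest of the 5 arrays, while Pb replicate 2 lay among the controls. Its mean differed by -0.13 on the log2 scale (SE 0.21, adjusted p = 0.843), with an interval of -0.65 to 0.39.

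Trib3, a pseudokinase gene that ATF4 and CHOP induce and whose product binds AKT, was at -0.31 and 0.19 in Pb, against -0.33, 0.15 and 0.15 in controls. Pb replicate 2 was slightly above all controls, and Pb replicate 1 lay among them near the lowest. On the log2 scale the means differed by -0.05 (SE 0.25, adjusted p = 0.953).

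Of the genes that act in the ER itself, Herpud1, whose promoter elements are printed above, had the largest positive difference. It was at 1.37 and 1.52 in the Pb spleens, against 1.37, 1.13 and 1.18 in the control spleens. Pb replicate 2 was the highest array, and Pb replicate 1 was level with the highest control. The log2 difference was 0.22 (SE 0.17, 95% confidence interval -0.21 to 0.65), and its adjusted p of 0.681 (limma) did not pass. Herpud1 was the 1 regulator that kept a positive difference in all 16 alternatives on corrected arrays, from 0.13 to 0.29, and none of these was called.

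Edem1, whose product directs misfolded glycoproteins to degradation, was at 3.43 and 2.93 in Pb, against 3.19, 3.30 and 3.38 in controls. The 2 Pb arrays enclosed the controls, one above and one below them. The log2 difference was -0.11 (SE 0.21, adjusted p = 0.868).

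Sdf2l1, which encodes an ER protein that works with the chaperone BiP, was at 3.62 and 3.89 in Pb, against 3.39, 4.19 and 3.55 in controls. Here the controls spread most, with an SD of 0.42, and both Pb values lay between them. The log2 difference was 0.05 (SE 0.28, adjusted p = 0.965), and around this probe the neighbours had an SD of 1.76 in Pb replicate 2.

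**Figure D2:**
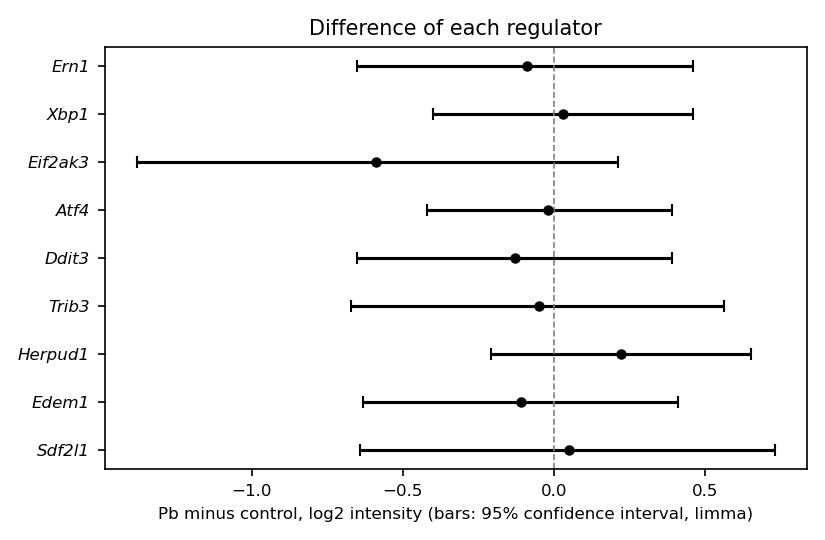
Log2 difference of Pb minus control for each regulator (points) with its 95% confidence interval from limma (bars), ordered by role. All 9 intervals include 0, and 8 of them lie between -1 and 1, Eif2ak3 being the exception with a lower end of -1.38.

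Taken as fitted, the interval of 8 of the 9 genes left out a 2-fold change in either direction, that is, a log2 difference of 1. The intervals of Xbp1 and Sdf2l1 do not take in the spread of neighbouring probes in Pb replicate 2, with SDs of 1.66 and 1.76. With a correction that ignores level, the differences were -0.41 for Xbp1, -0.46 for Sdf2l1 and -1.35 for Eif2ak3, none of them called. A missing call is no evidence of an equal level. The limma fit gives both groups 1 variance, although Pb replicate 2 was wider than the rest, with a median absolute deviation of 0.59 against 0.30 in Pb replicate 1 and 0.24 to 0.26 in controls.

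The Pb arrays did not share a direction. In 7 of the 9 genes Pb replicates 1 and 2 lay on opposite sides of the control mean, as did 43.6% of all probes tested. The median deviation of the members from the control mean was -0.07 in Pb replicate 1 and 0.10 in Pb replicate 2, beside -0.10, 0.02 and 0.08 in the control replicates. Pb replicate 1 lay inside the range of the controls for 6 genes, above it for 2 and below it for 1. Over all probes tested, 27.7% were above and 30.6% below in that array. Pb replicate 2 lay inside for 3, above for 3 and below for 3, beside 40.6% above and 31.5% below over all probes tested. In 7 genes Pb replicate 2 lay farther from the control mean than Pb replicate 1. Over all probes Pb replicate 2 was also the wider array, with a median absolute deviation of 0.59 against 0.30.

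The position correction moved Pb replicate 2 by more than the corrected groups differ in each of the 9 genes. Before it, the deviation of Pb replicate 2 from the control mean was -1.98 for Xbp1, 1.19 for Atf4, 1.52 for Ddit3 and 1.53 for Herpud1. After it, these were 0.14, -0.07, 0.10 and 0.29. The correction moved Pb replicate 2 by a median of 1.37 across the 9 probes and Pb replicate 1 by 0.38, while no control value moved by more than 0.61. Without any correction 0 of 9 regulators passed as well, with Xbp1 at -1.29 and Eif2ak3 at -2.43.

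**Figure D3:**
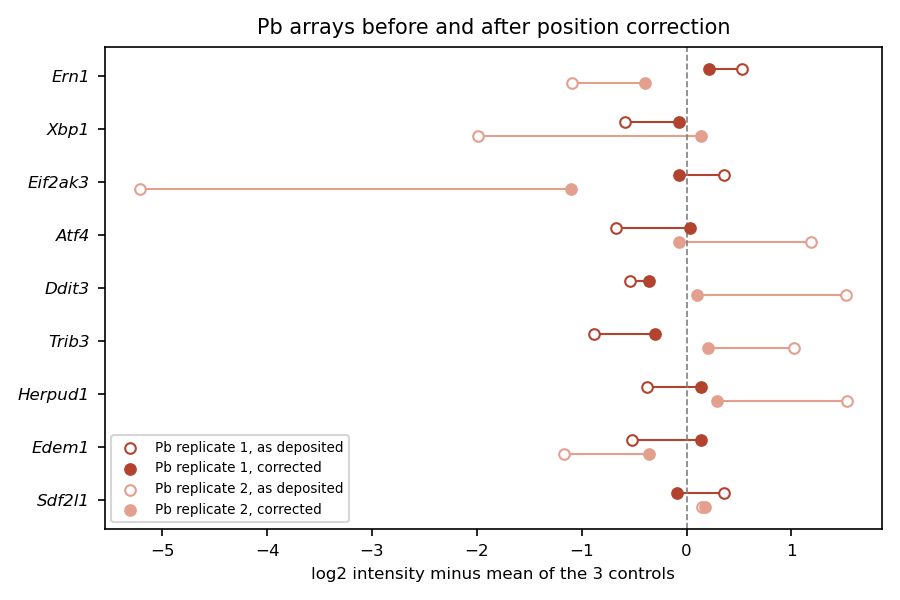
Deviation of each Pb array from the mean of the 3 controls on the log2 scale, as deposited (open circles) and after correction for position (filled circles), with Pb replicate 1 in dark red and Pb replicate 2 in light red. The longest lines belong to Pb replicate 2, and its filled point for Eif2ak3, at -1.10, is the one farthest from 0.

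The 3 genes with the profile nearest to that of Xbp1 over the 5 arrays were Gm17552, Mfsd9 and Diaph1. Likeness was the root mean square distance between log2 profiles centred on their means, among 14689 probes of named genes that varied at least as much as Xbp1, and it was 0.016, 0.018 and 0.024. Like Xbp1 they hardly varied, with an SD of 0.12, 0.11 and 0.13 over the 5 arrays.

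Among the genes on which the response acts, the list of protein folding in the ER had 17 measured genes of 19, all tested. Of these, 0 rose or fell past the adjusted threshold. The list held 12 means above and 5 below those of controls, where 53.8% of all probes tested lay above, and had a median log2 difference of 0.14. At an unadjusted p under 0.05, 2 were higher and 0 lower, beside 3.88% and 3.30% of all probes tested. All controls were exceeded in both Pb arrays by 5 of the 17 (29.4%, beside 14.0% of all probes tested). Hspa5 and Txndc5 were below all controls in both (11.8%, beside 12.7%), each by less than the rounding of the values in 1 Pb array. The 5 genes above were Dnajb11, Calr, Manf, and, named after their values were seen, Ppib and P4hb. That count became 0 with a correction that ignores level, under which the median difference was -0.15. Without Pb replicate 1 the count was 9 of 17, beside 40.6% of all probes tested above all controls in Pb replicate 2. Without Pb replicate 2 it was 6 of 17, beside 27.7% in Pb replicate 1, and the median was 0.00. Uncorrected arrays gave a median of -0.34.

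Dnajb11, a co-chaperone of BiP, was at 3.72 and 4.01 in Pb, against 3.36, 3.10 and 3.36 in controls. The groups did not overlap, and the log2 difference of 0.59 (SE 0.19) had an adjusted p of 0.622 (limma). Calr, the calcium-binding chaperone calreticulin, was at 4.33 and 4.27 in Pb, against 3.93, 3.85 and 3.90 in controls, a difference of 0.41. Manf, a secreted ER stress protein, was at 3.53 and 3.80 in Pb, against 3.21, 3.31 and 3.25 in controls, also a difference of 0.41. Neither passed, each with an adjusted p of 0.622. Hspa5, the gene of BiP, the chaperone that holds the sensors inactive, is named after its values were seen. It was at 5.73 and 5.71 in Pb, against 5.73, 5.81 and 5.96 in controls, a difference of -0.12 (95% confidence interval -0.53 to 0.29, adjusted p = 0.822). Hspa5 thus lay slightly below the control mean while Dnajb11, Calr and Manf lay above it, and none of the 4 differences passed.

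Genes were also grouped by sequence, a choice made after the data were seen. Of 35 genes with an ERSE in the promoter window, 19 were measured, 17 of them tested, and 0 passed. Their median difference was 0.04, and 1 was higher at an unadjusted p under 0.05, beside 3.88% of all probes tested. In both Pb arrays 2 of 19, Calr and Pan2, exceeded all controls (10.5%, beside 14.0% of probes tested).

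Of 14 measured genes of ER-associated degradation, 0 passed the adjusted or the unadjusted threshold. Of the means, 11 lay above and 3 below controls, where 53.8% of all probes tested lay above. The median difference was 0.06, but -0.14 with a correction that ignores level and -0.45 on uncorrected arrays. Ube2g2, a ubiquitin-conjugating enzyme, was at 1.18 and 2.61 in Pb, against 0.78, 1.20 and 0.78 in controls. Pb replicate 2 alone stood out, and the difference of 0.97 had an adjusted p of 0.622. Derl1 and Derl2, channel proteins of this pathway, had differences of 0.44 and 0.28, and Derl2 exceeded all controls in both Pb arrays. By the brightest probe of each gene it was 1 of 14 to do so (7.14%, beside 14.0% of all probes tested).

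Genes of translocation into the ER and export from it numbered 18, all tested, of which 0 passed, with a median of -0.02. Only Ssr4 was higher at an unadjusted p under 0.05, beside 3.88% of all probes tested. Ssr4, a subunit of the translocon-associated complex, was at 2.57 and 3.16 in Pb, against 2.04, 1.92 and 2.41 in controls, a difference of 0.74. Ssr3, another subunit of that complex, had a difference of -0.97 and Lman1, a cargo receptor, one of -0.70. Of the means in this list, 8 lay above and 10 below those of controls, where 53.8% of all probes tested lay above. The second probe of Lman1 differed in the other direction, by 0.37.

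The arm that controls eIF2 alpha had 6 measured genes besides Eif2ak3, with 0 past the adjusted or unadjusted threshold and a median of 0.10. Eif2ak1, the haem-regulated eIF2 alpha kinase, was at 0.13 and 1.10 in Pb, against 0.17, -0.12 and 0.00 in controls, so that only Pb replicate 2 was high. Ppp1r15a, which encodes GADD34, a subunit of the phosphatase that reverses the kinases, had a difference of 0.09 (95% confidence interval -0.36 to 0.54). The 2 probes of the adaptor gene Nck1 disagreed, with -0.48 for the brighter and 0.79 for the dimmer, both with an adjusted p of 0.622 (limma). The dimmer, which is not counted for the list, had an unadjusted p of 0.008 and exceeded all controls in both Pb arrays, while the brighter was below them.

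Among 13 partners and relatives of Ern1 and Atf6, 0 passed and the median was 0.08. At an unadjusted p under 0.05, 2 (Traf2 and Creb3l4) were higher, beside 3.88% of all probes tested. Traf2, the adaptor that links IRE1 to JNK signalling, was at -0.82 and -0.06 in Pb, against -1.74, -1.37 and -1.75 in controls. The groups did not overlap, and the difference of 1.18 (SE 0.28, 95% confidence interval 0.50 to 1.86) had an adjusted p of 0.622. The control mean of Traf2, -1.62, is under the limit on dim probes of -1.56, so it was tested only through its Pb values. Its difference and its place among the 2 higher genes are a description. Creb3l4, a relative of Atf6, had a difference of 0.78, and Mapk8, which encodes JNK1, one of -0.44. Of the 13, 4 exceeded all controls in both Pb arrays (30.8%) and 2 were below them (15.4%), beside 14.0% and 12.7% of probes tested. The 4 include Traf2, so that count too is a description. It fell to 2 with a correction that ignores level, with quantile normalization and on the 5 arrays without correction. With the correction that ignores level, the median was -0.21.

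The 23 measured targets of Atf4 and Ddit3 had a median of 0.07, and 0 of the 21 tested passed either threshold. Atf3 and Cth were under the filter and not tested, with differences of 1.02 and -1.17. In both Pb arrays 1 of the 23, Atf3, exceeded all controls (4.35%) and 2 were below them (8.7%). Over all probes tested these shares were 14.0% and 12.7%. Here the Pb arrays differed from each other. In Pb replicate 1, 13 of the 23 genes lay below all controls, and in Pb replicate 2, 14 of 23 lay above all controls, beside 30.6% and 40.6% of all probes tested. The median deviation from the control mean was -0.14 in Pb replicate 1 and 0.33 in Pb replicate 2. Vldlr, a lipoprotein receptor, had a difference of 0.67 (-0.18 by its dimmer probe), Cebpg, a partner of ATF4, one of -0.24, and Eprs, a transfer RNA synthetase, one of -0.21, with adjusted p from 0.624 to 0.672 (limma).

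**Figure D4:**
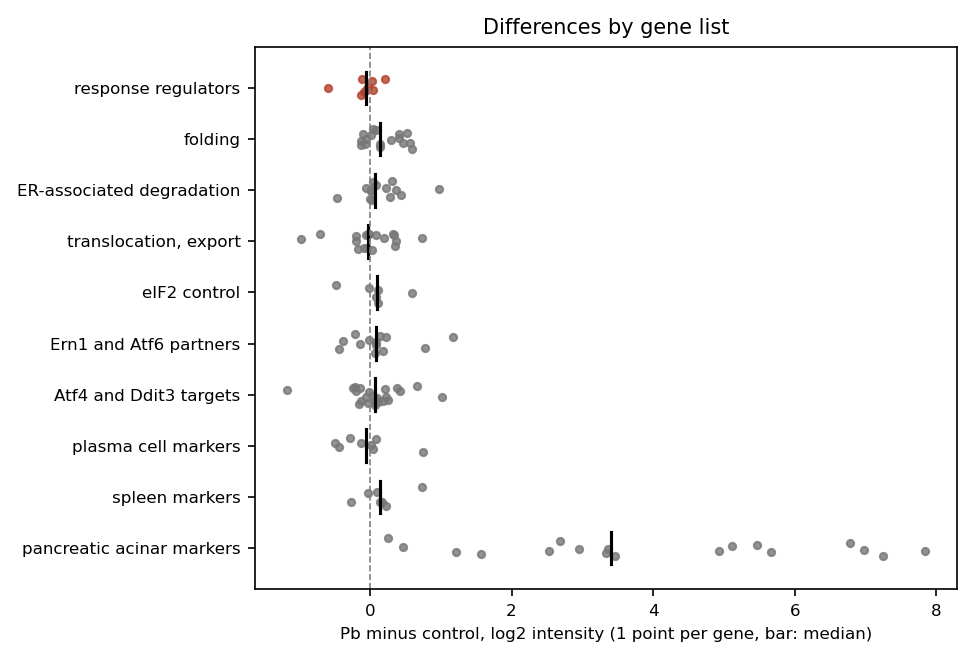
Log2 difference of Pb minus control by gene list, 1 point per measured gene (the probe with the highest mean) and a black bar at the median, with the 9 regulators in red. The regulators centre on -0.05 and the other lists of the pathway between -0.02 and 0.14, whereas the acinar markers of the pancreas have a median of 3.41. With a correction that ignores level, not drawn, these medians were -0.40, between -0.36 and -0.14, and 3.40.

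Markers of pancreatic acinar cells, which have a large ER, were higher in the Pb arrays. Of 18 measured genes, 17 were tested, 10 were called higher and 0 lower, and 7 of those tested did not pass. Over all probes tested, 0.0613% were called higher. In both Pb arrays 16 exceeded all controls (88.9%, beside 14.0% of all probes tested). Of the 10 called, 5 had a control mean under the limit on dim probes and were tested only through their Pb values, so the count of calls supports nothing by itself, and without the filter it was 0. Their summed level on the linear scale was 204 and 285 in Pb replicates 1 and 2, against 23.4 to 26.2 in controls, with no measured gene of the list at or under 0 as deposited. Of the 4 with the highest mean, Rnase1, a secreted ribonuclease, and Sycn, a zymogen granule protein, rose by 2.53 and 2.95 (adjusted p = 0.019 and 0.011, limma). The elastase gene Cela1 and the colipase gene Clps had differences of 1.22 and 1.57 that did not pass (adjusted p = 0.622 and 0.101). Acinar cells are rich in ER chaperones, and the part of these transcripts in the values of Dnajb11, Calr and Manf was not tested. In bulk tissue, fewer or more cells of a type and less or more RNA per cell cannot be told apart.

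Plasma cell markers gave no call, with 0 of 7 tested past the adjusted threshold. At an unadjusted p under 0.05, 1 was lower (beside 3.30% of all probes tested), Sdc1, named after its values were seen. Sdc1 was at 0.60 and 0.18 in Pb, against 0.89, 0.83 and 0.92 in controls, a difference of -0.49 (adjusted p = 0.622, limma). Of the 8 markers 4 had a mean above and 4 below controls, and their median difference was -0.06. Their summed level was 264 and 152 in Pb replicates 1 and 2, against 202 to 225 in controls, and 7 of the 8 were lower in Pb replicate 2 than in Pb replicate 1, as were 45.8% of all probes tested. In both Pb arrays 2 of the 8 were below all controls (25%, beside 12.7%). Jchain, the joining chain of secreted antibody, was at 7.27 and 6.53 in Pb, against 6.86, 6.75 and 6.97 in controls, and Mzb1, an ER protein of antibody-secreting cells, at 6.58 and 5.64, against 6.40, 6.35 and 6.44. Irf4 and Pou2af1 had differences of 0.02 and -0.44. Xbp1 differed by 0.21 between the same Pb arrays, with Pb replicate 2 the higher, and the part of plasma cells in its level was not tested. Markers of the spleen were present in both groups, among them the B cell gene Ms4a1 (difference -0.03), Cd79a (0.14), Cd8a (-0.26) and Vcam1 (0.17). Of 7 measured, 0 passed. At an unadjusted p under 0.05, 1 was higher (beside 3.88% of all probes tested), the T cell gene Cd3e, named after its values were seen. It differed by 0.74 (adjusted p = 0.622, limma) and alone of the 7 exceeded all controls in both Pb arrays (14.3%, beside 14.0%). Their summed level was 106 and 112 in Pb, against 102 to 111 in controls.

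**Figure D5:**
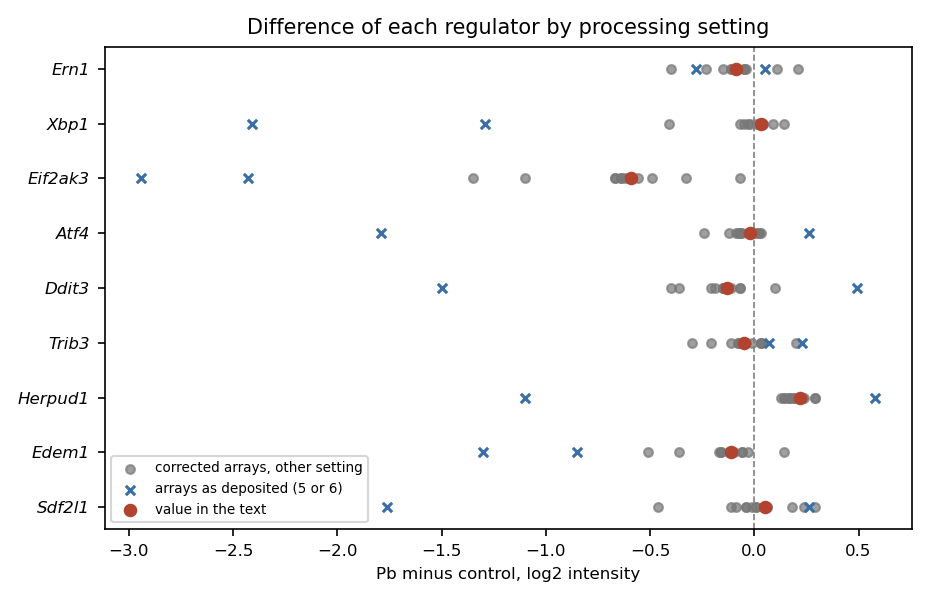
Log2 difference of Pb minus control for each regulator under each processing setting, with the value in the text in red, other settings on corrected arrays in grey and arrays without correction as blue crosses. Grey points stay between -0.51 and 0.29 for all genes but Eif2ak3, which reaches -1.35, and the blue crosses reach -2.94.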

How the data were processed

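Spleen RNA of 3 Pb and 3 control mice was labelled with Cy5 and hybridised to CodeLink arrays, per the labels. The authors deposited 1 intensity per probe, on a linear scale. Array medians of 0.972 to 0.987 point to a scaling of each array, but the sources used here give neither that step nor the software or any background correction. Detection calls were not used here, and the number of arrays limits the precision.

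For log2, the 151 to 711 intensities per array at or under 0 took the value of that array's 1st percentile among positive ones. Pb replicate 3 and array rows 402 to 409 were left out, as earlier work on these data had done. A smooth surface of each array's departure from the average of 4 arrays (all controls, Pb replicate 1) was subtracted, and the fit was run 2 times. It used mgcv 1.9.3 with tensor terms for array row by level and array row by column, with 40 (row), 6 (level) and 8 (column) basis functions. Probes with a mean at or above the 30th percentile were tested with limma 3.58.1 in R 4.3.3 (two-sided, Benjamini-Hochberg over all probes tested). The steps were also run on simulated arrays. These carried the smooth surfaces that the correction had removed, so they cannot show the scatter left around single probes. Each gene is given by its probe with the highest mean.

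The platform table gave 21615 probes 1 symbol, 681 several and 13291 none. Of those with 1 symbol, 21487 matched RefSeq (GRCm38.p6) by entrez identifier and 0 symbols changed. The files name no genome build, and coordinates belong to RefSeq alone.

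Members, lists and correction were chosen with earlier results of these data known. All members are named. Of other pathway lists the 3 genes with the smallest p are named, and of marker lists the 4 with the highest mean. Alternatives covered filter, surface, scaling, pseudocount, weights, variance trend, block and each array left out.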

Additional observations from a re-analysis of the deposited data

How the results depend on the processing

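Across 18 alternatives, 161 of 162 comparisons of the 9 regulators stayed on the same side of the threshold and 0 reversed with a call. The exception was Eif2ak3 without Pb replicate 1, at -1.10 (limma adjusted p = 0.036). The sign of an uncalled difference changed in 32. In 3 settings, named below, 0 probes of any gene passed, so no regulator could be called there. The count of 161 is therefore no evidence of a stable or equal level. With 1 array left out, 0 to 1 regulators passed, and in every other alternative 0. Their median difference was 0.07 without position correction, -0.40 with a surface without dependence on level, -1.50 in all 6 arrays as deposited, which include Pb replicate 3, and between -0.11 and 0.10 with 1 array left out. Of all probes, 15 passed, against 24 with a pseudocount of 0.5, 7 with array weights and 0 in each of 3 settings: no filter, no position correction, and all 6 arrays as deposited. Leaving out 1 array gave 2 to 2818, the highest of these without Pb replicate 1 and the lowest without control replicate 1. With the replicate block 7 probes and 0 regulators passed, and the median was -0.04. No label says that a number is shared by design, so the numbers were not taken to pair mice. The correlation of deviations within a number was 0.03 and 0.00. With 2 Pb arrays, their deviations from the Pb mean mirror each other, so these values cannot decide on pairing. Other scalings, surfaces of 15 and 80 basis functions, the filter at the 50th percentile and a variance trend kept the count of all probes within 1.5 times. Among the acinar genes the 10 calls became 0 without the filter, without position correction and in all 6 arrays, and 1 to 14 with 1 array left out. The cause of these shifts was not tested. For dim probes the filter is the sole guard, since no detection calls were used.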
